A study of Mus musculus with 12 samples.

Results

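The 29 genes described here make up the route of cholesterol synthesis in the liver together with the SREBP2 system that controls it. They are a list of names, and the rule itself uses no measured value. The list holds 20 enzymes of the pathway, 2 genes of sterol handling, 6 regulators of SREBP2 and 1 gene of lipoprotein receptor turnover. All 29 were found among the 16346 genes of the deposited table by their Ensembl identifiers, and all 29 passed the filter on low values, as did 12366 genes in all. Liver RNA was sequenced from C57BL6J mice aged 12 weeks. Control mice carried the floxed allele (Med13fl/fl), and MED13-LKO mice carried the floxed allele with *Alb*-Cre, a recombinase driven by the albumin promoter and thus active in hepatocytes. MED13 is a subunit of the kinase module of Mediator, a large complex through which bound transcription factors reach the polymerase. In each genotype 2 mice had been fasted for 16 h, 2 had been refed chow for 4 h with 30% sucrose in the drinking water and 2 had been refed in the same way with 30% fructose, which gave 6 groups and 12 libraries.

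Cholesterol is built from acetyl-CoA through mevalonate, isoprenoid phosphates, squalene and lanosterol. SREBP2, the product of *Srebf2*, is held in the endoplasmic reticulum by SCAP and the INSIG proteins while sterols are plentiful. When sterols fall, SCAP carries SREBP2 to the Golgi, where 2 proteases release the part that enters the nucleus and activates the genes of synthesis and uptake. The liver is a main site of this synthesis, and refeeding after a fast is known to raise it.

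The values are normalized counts, in which reads assigned to a gene have been divided by a factor for the library and possibly for the transcript lengths in use. They were compared on the log2(normalized count + 1) scale with limma, and a gene is called when its p-value, adjusted by Benjamini-Hochberg over the 12366 genes tested, was under 0.05. Log2 fold changes are given ± SE with n = 2 mice per group. No source states more than that the 2 libraries of a group are separate samples, which are called mice here. The p-values measure the spread between samples of a group, estimated from all 6 groups in 1 fit.

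Sequences upstream of 3 of the genes are shown because SREBP2 and its partner factors act through short motifs close to the start of transcription. *Hmgcs1* is shown because it was the 1 gene among 25 members with a RefSeq promoter entry that held TCACNCCAC on either strand, a form of the sterol regulatory element, in the 250 bases upstream of the start. *Sc5d* and *Mvd* were chosen after their values had been seen, because they rose with sucrose in control mice. Each sequence is the 250 bases before the RefSeq start on GRCm38.p6, 5′ to 3′ on the strand of the gene. Capitals mark TCACNCCAC and CCAAT, the motif of NF-Y, on either strand. These windows are chr13:119690101-119690350 (plus strand) for *Hmgcs1*, chr9:42264301-42264550 (minus strand) for *Sc5d* and chr8:122443423-122443672 (minus strand) for *Mvd*. None of them reaches into the gene as GENCODE M21 annotates it.
Hmgcs1: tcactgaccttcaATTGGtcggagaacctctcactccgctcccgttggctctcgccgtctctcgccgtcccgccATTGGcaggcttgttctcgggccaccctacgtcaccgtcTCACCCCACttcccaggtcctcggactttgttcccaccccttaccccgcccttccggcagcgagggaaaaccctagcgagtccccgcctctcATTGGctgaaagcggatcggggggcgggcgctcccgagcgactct
Sc5d: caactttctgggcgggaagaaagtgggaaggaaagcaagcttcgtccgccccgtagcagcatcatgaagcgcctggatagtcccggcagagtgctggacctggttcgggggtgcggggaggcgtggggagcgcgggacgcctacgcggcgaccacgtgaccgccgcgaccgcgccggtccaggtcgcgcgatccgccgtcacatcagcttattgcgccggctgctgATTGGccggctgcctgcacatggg
Mvd: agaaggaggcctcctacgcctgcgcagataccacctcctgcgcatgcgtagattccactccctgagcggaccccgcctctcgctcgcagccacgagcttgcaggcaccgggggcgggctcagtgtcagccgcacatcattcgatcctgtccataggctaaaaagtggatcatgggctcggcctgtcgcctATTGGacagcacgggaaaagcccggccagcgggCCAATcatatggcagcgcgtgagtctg
The match in *Hmgcs1* is TCACCCCAC on the plus strand and starts 137 bases before the start. TCACNCCAC was held by 1.23% of the 27025 genes with a promoter entry and by 1.29% of the 9618 of them that were tested here. CCAAT on either strand was found upstream of 21 of the 25 members (84%), against 40.6% of the tested genes, and in *Hmgcs1* it occurs 3 times. GGGCGG on either strand, the core of the Sp1 site, was found upstream of 22 of the 25 members (88%) and of 62.5% of the tested genes. TCACGTGA on either strand was found in none of the 25 and in 1.77% of the tested genes. With 1 letter fewer, TCACNCCA was found in *Hmgcs1*, *Msmo1* and *Srebf2* (4.00% of the tested genes hold it) and CACNCCAC in *Acat2*, *Hmgcs1* and *Insig1* (6.57%). Those 2 motifs were added after the first results were seen, overlap each other and lie inside TCACNCCAC. No promoter sequence was used for *Fdft1*, *Fdps*, *Sqle* and *Stard4*. A match is a description of the letters in the window and not of a bound site.

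The targeted gene itself showed no fall with the label. *Med13* had 674 and 796 normalized counts in fasted, 578 and 673 in sucrose-fed and 607 and 778 in fructose-fed control mice. Fasted mice labelled MED13-LKO had 808 and 899, sucrose-fed ones 646 and 717 and fructose-fed ones 681 and 1055. The difference over the diets was 0.22 ± 0.11 on the log2 scale (limma, adjusted p = 0.201). Which exons the floxed allele deletes is not given in the sources used here, so a value for the whole gene may not test the deletion, and directions between genotypes below are those of the libraries as labelled. The paper reports, from Western blots of liver nuclear proteins, that MED13 protein was nearly absent in MED13-LKO mice.

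Estimated reads on genes were between 16080000 and 24240000 per library. Each estimate is the sum of a library's values divided by its step, the fitted value of a single read. The defining hepatocyte markers were present at high levels in every library, with sums over 6 genes of 2246003 to 2925327 in control libraries and 1668461 to 2021850 in those labelled MED13-LKO. The sum of 6 Kupffer cell markers ran from 2972 to 4147 and from 4031 to 5360 in the same order, and that of 6 sinusoidal endothelial markers from 3465 to 4399 and from 4112 to 5453. The Kupffer cell and endothelial ranges overlapped over the diets, but on each diet both MED13-LKO sums lay above both control sums. Sums over 6 stellate cell markers (5341 to 6434 and 4843 to 5590), 4 cholangiocyte markers (666 to 876 and 534 to 849) and 3 lymphocyte markers (171 to 244 and 213 to 319) also overlapped over the diets. No cell type marker in the table was at 0 in every library of a group. The 5 male-biased liver genes summed to between 141334 and 525295 in control libraries and to between 17439 and 28246 in those labelled MED13-LKO, and the 5 female-biased genes to between 14.3 and 93.3 and to between 2264 and 6583. In control libraries *Mup7* made up most of the male-biased sum (111473 to 482992, and 649 to 4685 in MED13-LKO libraries). *Cyp2a4* made up most of the female-biased sum in MED13-LKO libraries (2256 to 6576, and 11.2 to 39.6 in control ones). *Mup7* shares 90.0% and *Cyp2a4* 58.9% of its 31-base subsequences with other genes. The male-biased *Hsd3b5* (820 to 4518 in control and 12.8 to 101 in MED13-LKO libraries) and *Cyp2d9* (26047 to 35157 and 12727 to 19056.5) were also lower without overlap. The male-biased *Cyp4a12a* (2930 to 6396 and 3079 to 8083) and *Elovl3* (15.5 to 392 and 0 to 69.2) overlapped between the labels. The female-biased *Cyp2b9* was at 485 and 576 in sucrose-fed MED13-LKO mice, against 12.0 and 21.7 in sucrose-fed control mice. In the other MED13-LKO mice it was at most 3.1. Of the female-biased genes *Cyp2b13*, *Cyp3a41a* and *Sult3a1* stayed under 16 in every library. By contrast, Y-linked genes summed to alike levels (3032 to 3547 and 3253 to 3692). On each diet the hepatocyte, Kupffer cell, sinusoidal endothelial, male-biased and female-biased sums differed between the labels without overlap. The part of any of these sums in the differences between genotypes below was not tested. In bulk liver, fewer cells of a type and less RNA per cell cannot be told apart.

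Across the 12 libraries most of the 20 enzymes moved together. Relative to the mean of the fasted control mice, the median of the 20 enzymes was 0.31 and 0.37 higher on the log2 scale in the 2 sucrose-fed control mice. It was -0.01 and -0.51 in the fructose-fed control mice, which thus differed from each other. For the mice labelled MED13-LKO the fasted pair had -0.43 and -0.95, the sucrose-fed pair -0.62 and -0.39 and the fructose-fed pair -0.18 and -0.21. All 6 of these medians lay below 0, and the lowest was that of fasted mouse 2, in which each of the 20 enzymes was under the fasted control mean. The heat map of all 29 genes shows these shifts as columns that are red or blue over most enzymes.

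**Figure D1:**
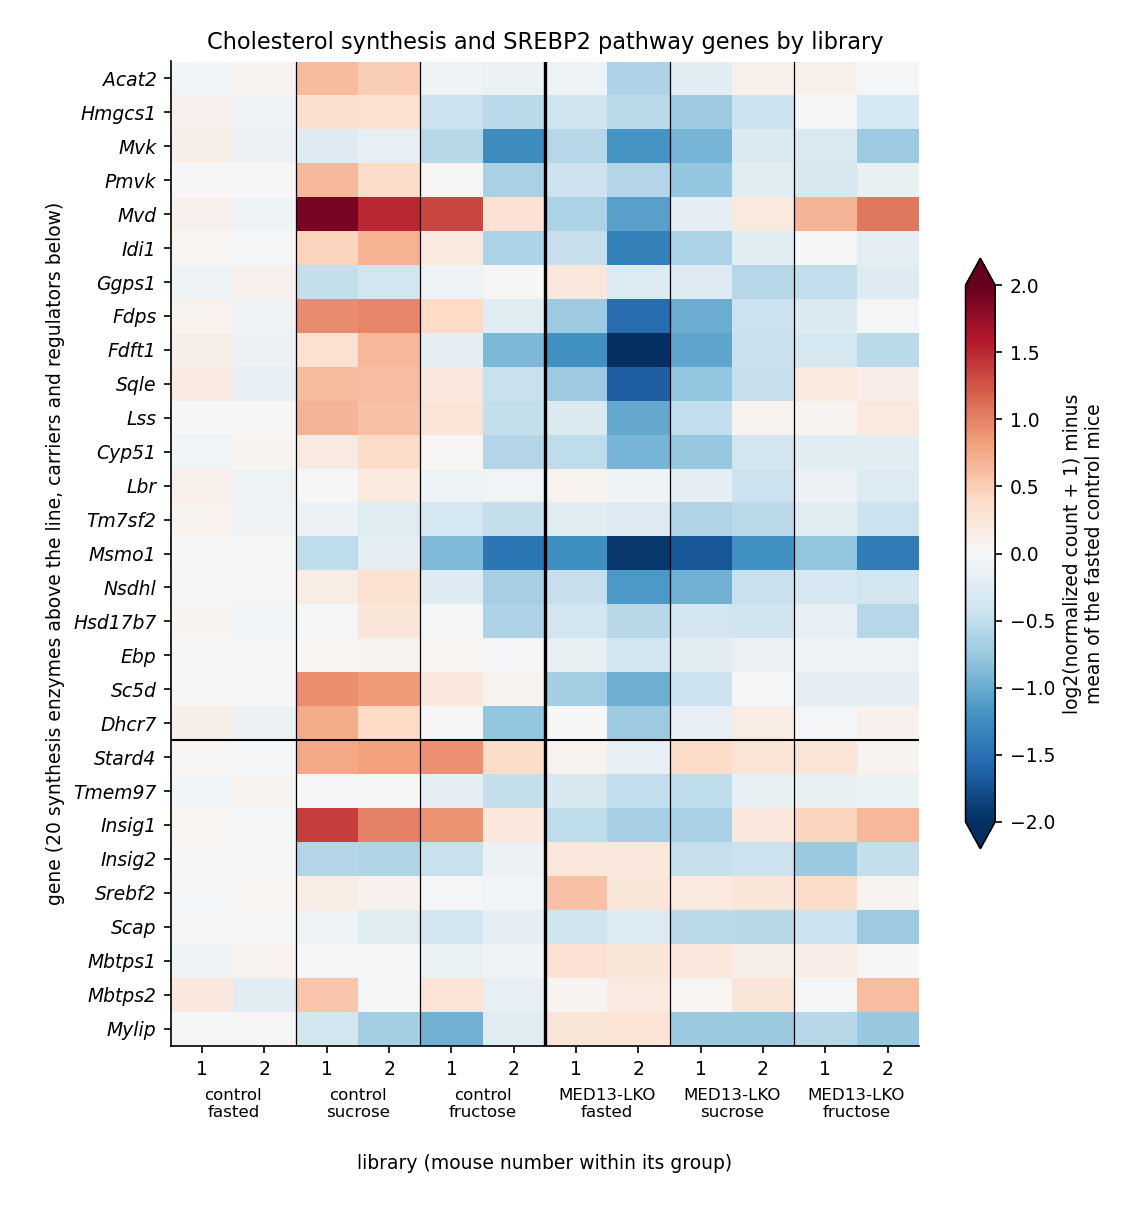
Heat map of log2(normalized count + 1) minus the mean of the 2 fasted control mice, for the 29 genes (rows) in the 12 libraries (columns, 2 mice per group). The 2 sucrose-fed control mice are red over most of the 20 enzymes above the line, and MED13-LKO fasted mouse 2 is blue over all 20.

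The 2 mice of a group could differ by as much as groups did, and the enzymes then differed in the same direction. In the fructose-fed control pair 18 of the 20 enzymes were lower in mouse 2, with a median difference of -0.60 on the log2 scale, and *Mvd* differed most (-1.04). In the fasted MED13-LKO pair all 20 were lower in mouse 2, with a median of -0.51 and *Fdft1* at -1.57. In the sucrose-fed MED13-LKO pair 17 of 20 were higher in mouse 2, with a median of 0.38. The other 3 pairs were mixed, with medians of -0.09 in fasted control, 0.03 in sucrose-fed control and -0.04 in fructose-fed MED13-LKO mice. Over all genes tested the median difference within each pair was between -0.0023 and 0.0046. Counts of enzymes that point one way are therefore not counts of independent observations.

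The paper's methods place the killing of fed mice later in the day than that of fasted mice. Feeding and time of day therefore cannot be told apart in the comparisons with the fasted state. After refeeding with sucrose *Mvd*, *Sc5d*, *Insig1* and *Stard4* were higher than in fasted control mice, and *Insig2* was lower. These 5 of the 29 genes were called, against 8.57% of all genes tested (4.85% higher and 3.72% lower). The median of the 20 enzymes was 0.40 on the log2 scale, against -0.02 over all genes. The 2 sucrose-fed mice were both above the 2 fasted mice in 14 of the 20 enzymes and both below in 4, while 27.0% and 29.1% of all genes tested separated in those directions.

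*Mvd*, which decarboxylates mevalonate diphosphate to give the first isoprenoid unit, rose from 277 and 243 in fasted control mice to 970 and 737 with sucrose (1.70 ± 0.31, adjusted p = 0.0100). Both sucrose-fed mice lay far above both fasted mice. *Sc5d*, the desaturase that acts on lathosterol close to the end of the pathway, rose from 8797 and 8695 to 16645 and 15732 (0.89 ± 0.13, adjusted p = 0.00362). The 2 mice of each group were close to each other, and its call was kept when each of the 12 mice was left out in turn. *Insig1*, on chromosome 5 from 28071363 to 28078662, retains SCAP and is itself a target of SREBP2. It rose from 8355 and 7849 to 21229 and 16328 (1.20 ± 0.28, adjusted p = 0.0261). *Stard4*, a carrier of cholesterol between membranes, rose from 2917 and 2801 to 4905 and 5039 (0.80 ± 0.15, adjusted p = 0.0125). *Insig2*, the second retention protein, on chromosome 1 from 121304353 to 121332589, moved the other way, from 2074 and 2072 to 1383 and 1369 (-0.59 ± 0.12, adjusted p = 0.0136), and the groups did not overlap in either gene.

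Enzymes other than *Mvd* and *Sc5d* had log2 fold changes that did not pass the test. *Fdps*, which makes farnesyl diphosphate, had 3695 and 3357 in fasted and 6801 and 6960 in sucrose-fed control mice (0.97 ± 0.28, adjusted p = 0.0592). *Acat2*, the thiolase of the first step, had a change of 0.56 ± 0.16 (adjusted p = 0.0598) and *Hmgcs1*, the cytosolic HMG-CoA synthase, one of 0.31 ± 0.13 (adjusted p = 0.164). *Sqle*, the squalene epoxidase, had 2032 and 1608 against 2791 and 2765 (0.62 ± 0.28, adjusted p = 0.205). At the lowest end were *Ggps1*, which makes geranylgeranyl diphosphate for protein prenylation (-0.42 ± 0.19), and *Msmo1*, a sterol methyl oxidase (-0.35 ± 0.28). With control fasted mouse 1 left out 2 of the 29 genes were called, with control fasted mouse 2 left out 1, with control sucrose mouse 1 left out 1 and with control sucrose mouse 2 left out 2.

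Refeeding with fructose called 3 of the 29 genes in control mice, against 5.60% of all genes tested. *Stard4* rose to 5366 and 3696 (0.64 ± 0.15, adjusted p = 0.0413). *Msmo1* fell from 6710 and 6742 in fasted mice to 3650 and 2478 (-1.16 ± 0.28, adjusted p = 0.0420), and *Tm7sf2*, a sterol reductase, fell from 2454 and 2216 to 1823 and 1685 (-0.41 ± 0.09, adjusted p = 0.0352). The median of the 20 enzymes was -0.25, and 17 of the 20 had a value below 0, against 51.3% of all genes. The *Mvd* counts were 657 and 318, both above the fasted pair (0.81 ± 0.31, adjusted p = 0.154), and those of *Insig1* were 15174 and 9361 (0.56 ± 0.28, adjusted p = 0.260). These calls were the least stable: 0 of the 29 genes were called without control fasted mouse 1 or 2, control fructose mouse 1 or MED13-LKO sucrose mouse 1 or 2, and 1 was called without control sucrose mouse 1 or 2 or MED13-LKO fasted mouse 1 or 2. When the 4 libraries compared were fitted alone, 0 were called.

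In the mice labelled MED13-LKO, sucrose called 3 of the 29 genes, against 5.71% of all genes. The median of the 20 enzymes was 0.20, and it lay between -0.02 and 0.51 with 1 mouse left out. Both fed mice were above both fasted mice in 3 of the 20 enzymes and below in 2, against 27.8% of all genes in each direction. *Sc5d* rose from 5484 and 4455 to 6475 and 8477 (0.58 ± 0.13, adjusted p = 0.0305). *Insig2* fell from 2422 and 2402 to 1502 and 1534 (-0.67 ± 0.12, adjusted p = 0.00994), and *Mylip*, a ubiquitin ligase that marks lipoprotein receptors for degradation and is a target of LXR, fell from 376 and 387 to 191 and 191 (-0.99 ± 0.21, adjusted p = 0.0244). *Mylip* was not called in control mice, although both sugars left it under the fasted pair there (315 and 323). Its control counts were 246 and 198 after sucrose (-0.53 ± 0.21, adjusted p = 0.154) and 163 and 270 after fructose (-0.60). The *Insig1* counts were 5680 and 5083 in fasted and 5149 and 9333 in sucrose-fed mice, so that the pairs overlapped (0.37 ± 0.28, adjusted p = 0.498). No gene was called without MED13-LKO fasted mouse 2 or MED13-LKO sucrose mouse 2, and 1 was called without MED13-LKO sucrose mouse 1.

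With fructose 6 of the 29 genes were called in the mice labelled MED13-LKO, against 6.53% of all genes, and 4 of them rose. *Mvd* rose from 166 and 122 to 419 and 542 (1.74 ± 0.31, adjusted p = 0.0131). *Sqle* rose from 1088 and 579 to 2060 and 1984 (1.35 ± 0.28, adjusted p = 0.0227). *Sc5d* rose to 7666 and 7635 (0.63 ± 0.13, adjusted p = 0.0227) and *Insig1* to 11015 and 12773 (1.14 ± 0.28, adjusted p = 0.0383, and not called with either replicate block). *Insig2* fell to 1236 and 1485 (-0.83 ± 0.12, adjusted p = 0.00506) and *Mylip* to 218 and 189 (-0.91 ± 0.21, adjusted p = 0.0328). The median of the enzymes was 0.42, and both fed mice were above both fasted mice in 13 of the 20, against 27.0% of all genes. Without MED13-LKO fasted mouse 2, the library with the lowest enzyme values, the median was 0.16 and 1 of the 29 genes was called. Without MED13-LKO fasted mouse 1 the median was 0.73. Without MED13-LKO fructose mouse 1 or 2 the counts were 2 and 1.

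*Insig2* had a negative log2 fold change in each of these 4 feeding comparisons, and 3 of the 4 were called, the exception being fructose in control mice (-0.28 ± 0.12, adjusted p = 0.181). The fall with fructose in the mice labelled MED13-LKO kept its call when each of the 12 mice was left out. The comparisons with the fasted state share their fasted mice within a genotype. The plot of feeding responses sets the 4 comparisons side by side.

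**Figure D2:**
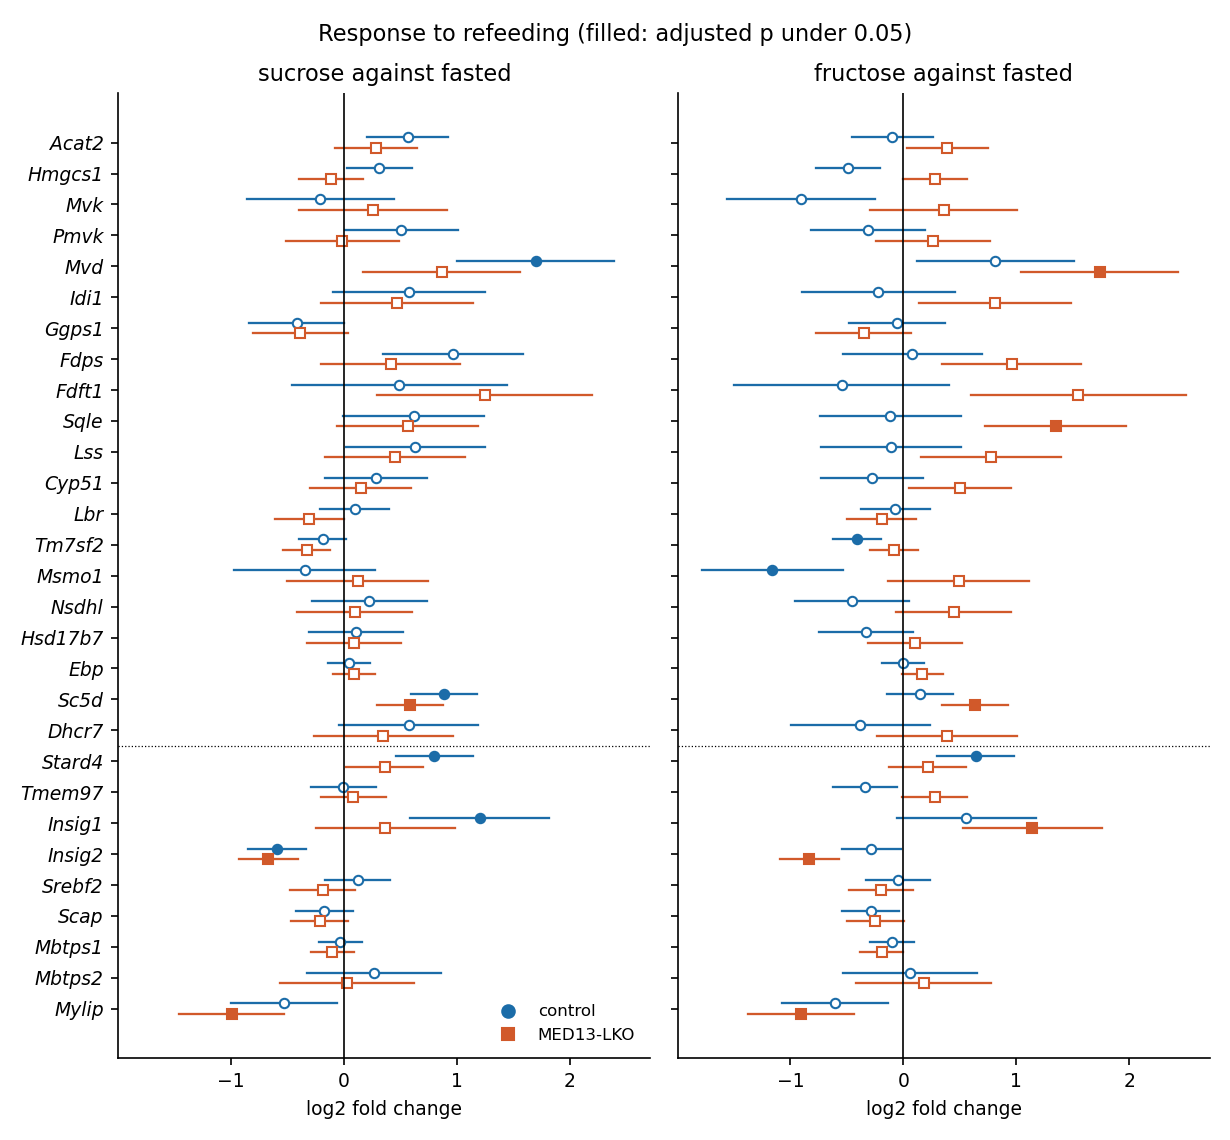
Log2 fold change against the fasted mice of the same genotype, with 95% confidence interval from limma, for the 29 genes (2 mice per group). Filled symbols passed an adjusted p of 0.05, and *Insig2* lies left of 0 in all 4 comparisons while *Mvd* lies right of 0.

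The second question was whether the genes differed between the genotypes on each diet. In the fasted state 6 of the 29 genes were lower in the libraries labelled MED13-LKO and 0 were higher (8.98% of all genes were called, 4.86% lower). They were *Sc5d*, *Msmo1*, *Fdft1*, *Sqle*, *Fdps* and *Hmgcs1*, all enzymes. The median of the 20 enzymes was -0.69, against 0.01 over all genes, and each of the 20 had a value below 0, as 48.5% of all genes did. In 17 of the 20 both MED13-LKO libraries lay under both control libraries, against 28.1% of all genes.

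*Sc5d* was at 5484 and 4455 in fasted MED13-LKO against 8797 and 8695 in fasted control mice (-0.82 ± 0.13, adjusted p = 0.00486), and this call was kept with each mouse left out. *Msmo1* was at 2870 and 1774 against 6710 and 6742 (-1.57 ± 0.28, adjusted p = 0.00823). *Fdft1*, the squalene synthase, had the largest fold change of the 6, with 808 and 271 against 2027 and 1714 (-1.99 ± 0.43, adjusted p = 0.0195). The value of 271 came from MED13-LKO fasted mouse 2, and without that mouse the change was -1.21, that of *Sqle* -0.73 and that of *Fdps* -0.72, none of them called. *Sqle* was at 1088 and 579 against 2032 and 1608 (-1.19 ± 0.28, adjusted p = 0.0293) and *Fdps* at 2135 and 1226 against 3695 and 3357 (-1.12 ± 0.28, adjusted p = 0.0340). *Hmgcs1* was at 2829 and 2563 against 3979 and 3498 (-0.47 ± 0.13, adjusted p = 0.0484), at the edge of the threshold. Its call was lost with a pseudocount of 0.1, with no filter on low values, with rescaling to equal 75th percentiles and with a block for the replicate number. The calls of *Fdft1*, *Sqle* and *Fdps* were lost when the 4 libraries compared were fitted alone.

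The number of genes called in the fasted comparison rested on single mice. It was 1 without control fasted mouse 1, 1 without control fasted mouse 2 and 1 without MED13-LKO fasted mouse 2. It was 11 without control fructose mouse 1 or 2, which enter this comparison through the shared estimate of the spread.

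With sucrose 12 of the 29 genes were lower in the libraries labelled MED13-LKO and 0 were higher (6.03% of all genes were called, 3.33% lower). Of the 12, 11 are enzymes, spread over the whole route from *Acat2* at its first step to *Sc5d* near its last, and the other is *Insig1*. The enzyme median was -0.87, against 0 over all genes, and in 19 of the 20 enzymes both MED13-LKO libraries lay under both control libraries, against 27.2% of all genes. *Ggps1* was the exception, with 145 and 157 in control and 169 and 136 in MED13-LKO libraries (0.01 ± 0.19).

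Between acetyl-CoA and mevalonate, *Hmgcs1* was at 2249 and 2760 against 4652 and 4629 (-0.90 ± 0.13, adjusted p = 0.00365), and *Acat2* at 1403 and 1763 against 2568 and 2321 (-0.63 ± 0.16, adjusted p = 0.0488). The first call was kept with each mouse left out. The second was lost under 7 of the 8 other settings tried. Among the steps that make the isoprenoids, *Mvd* was at 227 and 297 against 970 and 737 (-1.70 ± 0.31, adjusted p = 0.0122) and *Fdps* at 1771 and 2625 against 6801 and 6960 (-1.67 ± 0.28, adjusted p = 0.00790). *Pmvk*, the phosphomevalonate kinase, was at 405 and 587 against 1093 and 896 (-1.02 ± 0.23, adjusted p = 0.0282). Neighbouring steps had values of the same sign that were not called, *Idi1*, the isopentenyl diphosphate isomerase, at 4012 and 5312 against 8487 and 10122 (adjusted p = 0.0856) and *Mvk*, the mevalonate kinase, with a change of -0.40 ± 0.29 (adjusted p = 0.487).

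From squalene on, *Sqle* was at 1053 and 1310 against 2791 and 2765 (-1.24 ± 0.28, adjusted p = 0.0303). *Fdft1* and *Lss*, which make squalene and lanosterol, had changes of -1.24 ± 0.43 (adjusted p = 0.129) and -0.84 ± 0.28 (adjusted p = 0.114). *Cyp51*, the lanosterol demethylase, was at 2747 and 3568 against 5273 and 6055 (-0.85 ± 0.20, adjusted p = 0.0368), and *Msmo1* at 2081 and 2890 against 4751 and 5881 (-1.11 ± 0.28, adjusted p = 0.0461). *Nsdhl*, the decarboxylase that acts with *Msmo1*, was at 728 and 1045 against 1578 and 1752 (-0.93 ± 0.23, adjusted p = 0.0418), and *Tm7sf2* at 1539 and 1598 against 2139 and 1961 (-0.39 ± 0.09, adjusted p = 0.0412). The calls of *Cyp51* and *Nsdhl* were lost with the replicate block. That of *Msmo1* was lost with the replicate block, with no filter and with equal 75th percentiles, and that of *Tm7sf2* with equal 75th percentiles and with only the 4 libraries compared. *Sc5d* was at 6475 and 8477 against 16645 and 15732 (-1.13 ± 0.13, adjusted p = 0.00107), the call with the lowest p-value of the 29 genes in any single diet, and it was kept with each mouse left out. *Lbr*, *Hsd17b7*, *Ebp* and *Dhcr7*, a reductase, a ketoreductase, an isomerase and the last reductase of the route, had changes between -0.58 and -0.22 and were not called.

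*Insig1* was at 5149 and 9333 in the sucrose-fed MED13-LKO against 21229 and 16328 in the control mice (-1.43 ± 0.28, adjusted p = 0.0159). The 2 MED13-LKO values differ by 0.86 on the log2 scale, the largest difference between those 2 mice among the 29 genes, and both lie under both control values. *Insig2* had 1502 and 1534 against 1383 and 1369 (0.14 ± 0.12, adjusted p = 0.547). The count of 12 became 2 without MED13-LKO sucrose mouse 1, 7 without MED13-LKO sucrose mouse 2, 3 without control sucrose mouse 1, 4 without control sucrose mouse 2 and 7 without either control fasted mouse. A block for the replicate number gave 8, and a block for the number in the column names gave 6.

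With fructose 0 of the 29 genes were called between the genotypes by limma, although 7.69% of all genes were, and at an unadjusted p under 0.05 there were 1 higher and 4 lower (11.2% and 12.0% of all genes). The median of the 20 enzymes was 0.08, against 0 over all genes. *Hmgcs1* was at 3642 and 2924 in MED13-LKO against 2755 and 2567 in control libraries (0.30 ± 0.13, 95% interval 0.01 to 0.58, adjusted p = 0.200). *Sc5d* was at 7666 and 7635 against 10152 and 9187 (-0.34 ± 0.13, adjusted p = 0.156) and *Insig2* at 1236 and 1485 against 1515 and 1917 (-0.33 ± 0.12, adjusted p = 0.118). *Fdps* was at 2893 and 3412 against 4647 and 2977, and the pairs overlapped (-0.24 ± 0.28, 95% interval -0.86 to 0.37). *Insig1* was at 11015 and 12773 against 15174 and 9361 (-0.01 ± 0.28, 95% interval -0.62 to 0.61). The intervals are wide, and smaller differences were not detectable with 2 mice per group. Without control fructose mouse 1 or 2, 1 gene was called. The plot of levels by mouse sets these pairs beside those of the other diets.

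**Figure D3:**
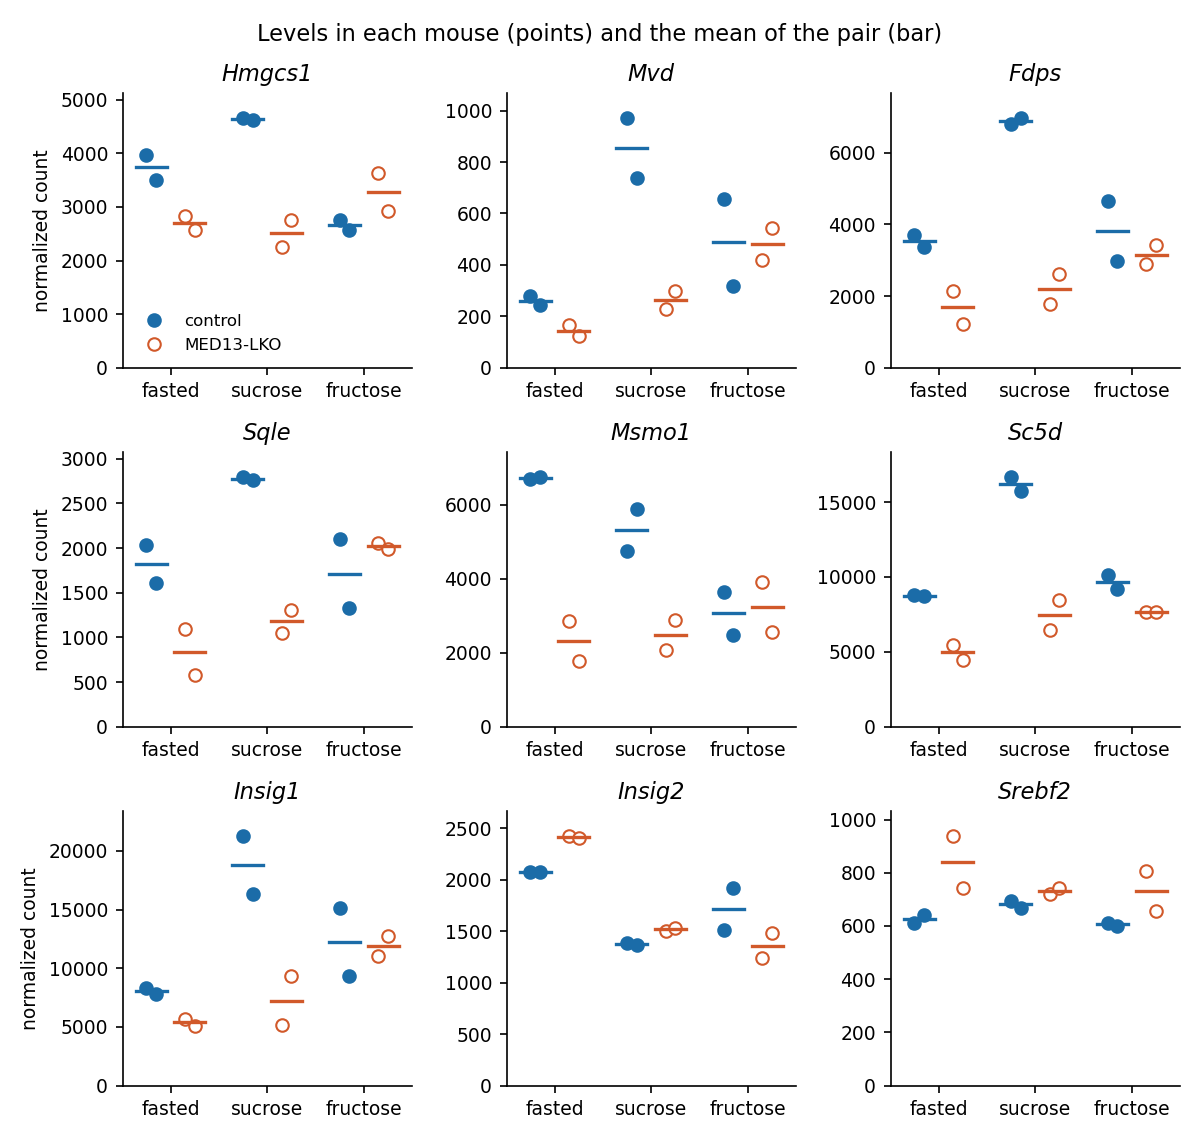
Normalized counts of 9 genes in each mouse by diet, with filled points for control and open points for MED13-LKO libraries and a bar at the mean of each pair (n = 2). For *Hmgcs1*, *Fdps*, *Sqle* and *Sc5d* the sucrose-fed control pair lies above all other pairs, and their genotype means lie closer together with fructose than with sucrose.

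**Figure D4:**
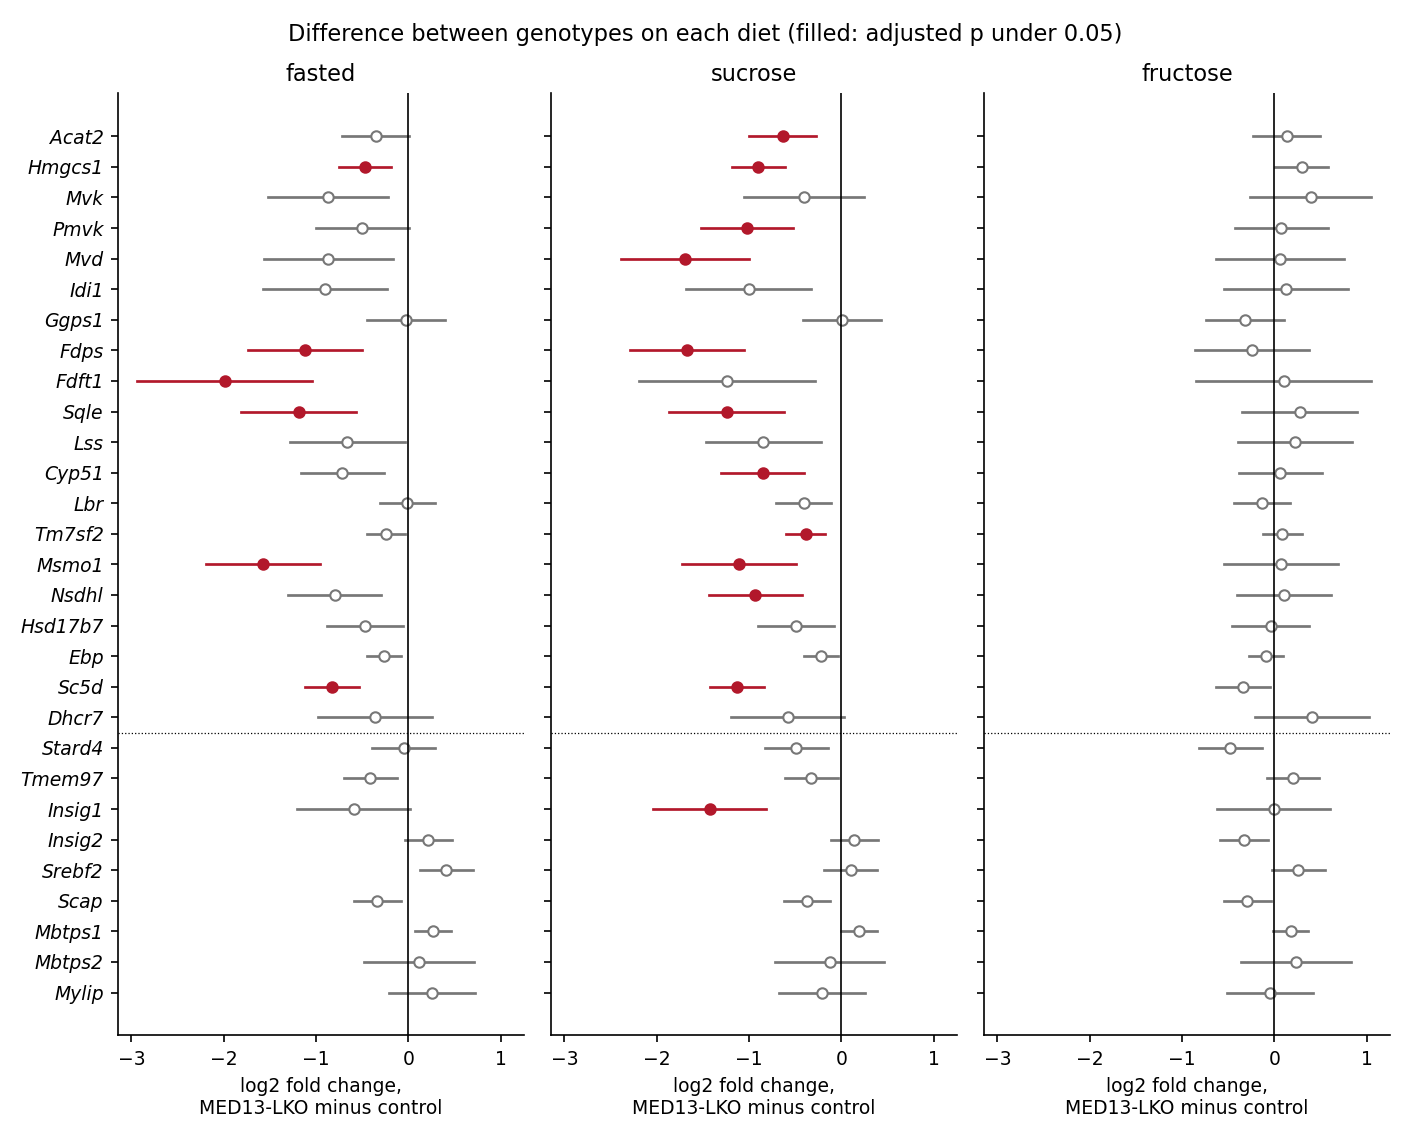
Log2 fold change between MED13-LKO and control libraries with 95% confidence interval from limma on each diet, for the 29 genes (2 mice per group). Filled points passed an adjusted p of 0.05, which 6 genes did in fasted, 12 in sucrose-fed and 0 in fructose-fed mice.

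Averaged over the 3 diets, 17 of the 29 genes were called lower in the libraries labelled MED13-LKO and 2 higher, against 13.2% and 12.1% of all genes. The 14 enzymes among them had changes between -0.18 for *Tm7sf2* and -1.04 for *Fdft1*, the latter with an SE of 0.25 and an adjusted p of 0.0122, and the enzyme median was -0.45. The lowest adjusted p was that of *Sc5d* (-0.76 ± 0.08, adjusted p = 9.2e-05). The other 3 called lower were *Insig1* (-0.67 ± 0.16, adjusted p = 0.0121), *Stard4* (-0.34 ± 0.09, adjusted p = 0.0200) and *Scap* (-0.33 ± 0.07, adjusted p = 0.00495). The average mixes fasted and sucrose-fed differences with fructose-fed ones near 0, so it describes no single diet of most enzymes.

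The genes of the SREBP2 protein itself and of its proteases were not lower with the label. *Srebf2* was at 612 and 640 in fasted, 694 and 668 in sucrose-fed and 612 and 600 in fructose-fed control mice, and at 936 and 741, 719 and 744, and 807 and 655 in the libraries labelled MED13-LKO. Over the diets it was higher in the latter by 0.26 ± 0.07 (adjusted p = 0.0281), a call kept in 5 of the 12 fits that left out 1 mouse, and both MED13-LKO values exceeded both control values on each diet. *Mbtps1*, the first protease that cuts SREBP2 in the Golgi, was higher by 0.21 ± 0.05 (adjusted p = 0.0116), with 820 and 896, 840 and 838, and 782 and 815 in control and 1052 and 1011, 994 and 927, and 942 and 865 in MED13-LKO libraries. *Mbtps2*, the second protease, differed by 0.08 ± 0.15 (adjusted p = 0.760). Of the 29 genes, *Srebf2* and *Mbtps1* were the 2 that lay above the control values without overlap on each of the 3 diets, which 8.27% of all genes did.

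*Tmem97*, a membrane protein that binds sterols, was not called in any comparison. Its counts were 2336 and 2539, 2407 and 2447, and 2121 and 1743 in fasted, sucrose-fed and fructose-fed control mice, and 1944 and 1723, 1717 and 2191, and 2204 and 2230 in MED13-LKO mice. The difference between the genotypes was -0.41 ± 0.13 in fasted mice (adjusted p = 0.0756), -0.32 ± 0.13 in sucrose-fed mice (adjusted p = 0.179) and 0.21 ± 0.13 in fructose-fed mice (adjusted p = 0.373).

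*Scap*, the escort of SREBP2, lay lower on each diet. It was at 1614 and 1552, 1477 and 1333, and 1215 and 1377 in control and at 1199 and 1316, 1091 and 1076, and 1172 and 953 in MED13-LKO libraries, with no overlap on any diet. *Sc5d* and *Ebp* were the other 2 of the 29 genes that lay under the control values without overlap on each of the 3 diets, against 9.82% of all genes. For *Ebp*, the sterol isomerase, the differences were small (-0.19 ± 0.05 over the diets, adjusted p = 0.0165), since its counts in all 12 libraries lay between 2987 and 4002. Taking the fasted and sucrose-fed mice together, 20 of the 29 genes lay under the control values without overlap on both diets, against 15.1% of all genes.

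The third comparison was between the sugars. In control mice 0 of the 29 genes were called between fructose and sucrose by limma, and 5 of the 12366 genes tested were (0.0404%). The enzyme median was -0.74, and both fructose-fed mice were under both sucrose-fed mice in 19 of the 20 enzymes, against 17.5% of all genes. At an unadjusted p under 0.05, 19 of the 29 genes were lower (4.65% of all genes) and 1 was higher (3.93%). *Hmgcs1* had 2755 and 2567 with fructose against 4652 and 4629 with sucrose (-0.80 ± 0.13, adjusted p = 0.0869), and *Sc5d* had 10152 and 9187 against 16645 and 15732 (-0.74 ± 0.13, adjusted p = 0.131). In the mice labelled MED13-LKO 0 of the 29 genes were called (0.0404% of all genes were) and 5 were higher with fructose at an unadjusted p under 0.05 (3.99% of all genes). There the enzyme median was 0.29, and each of the 20 enzymes had a value above 0, as 48.9% of all genes did. *Mvd* (0.87 ± 0.31, adjusted p = 0.548), *Sqle* (0.78 ± 0.28, adjusted p = 0.548) and *Insig1* (0.77 ± 0.28, adjusted p = 0.548) had the largest values.

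Whether feeding acted differently in the genotypes was tested by interaction terms, and none of the 29 genes passed. For sucrose 0 were called by limma (0.146% of all genes were) and 1, *Hmgcs1*, had an unadjusted p under 0.05 (-0.43 ± 0.18, adjusted p = 0.564), against 4.70% of all genes in that direction. For fructose 0 were called (0.0243% of all genes were), while 13 had an unadjusted p under 0.05 in the higher direction, 12 of them enzymes, against 4.16% of all genes. *Fdft1* (2.09 ± 0.60, adjusted p = 0.373), *Msmo1* (1.65 ± 0.39, adjusted p = 0.264), *Sqle* (1.46 ± 0.40, adjusted p = 0.323) and *Hmgcs1* (0.77 ± 0.18, adjusted p = 0.257) were among them. The genotype difference with fructose minus that with sucrose was examined after the values had been seen. It had an enzyme median of 1.01, 0 genes called (0.105% of all genes were) and 16 at an unadjusted p under 0.05 in the higher direction (3.61% of all genes). *Hmgcs1* came nearest to a call (1.19 ± 0.18, adjusted p = 0.0523), and it was called with no filter on low values. The genes with such values are those that move together from mouse to mouse. The fructose-fed control pair, which enters the last contrast and the fructose interaction, and the fasted MED13-LKO pair, which enters the interactions with either sugar, were among the pairs that differed most within themselves.

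Other genes around the pathway were counted from 4 lists of 30 genes, of which 29 were tested. Among 8 partners of sterol-dependent degradation, *Rnf145*, a ubiquitin ligase that binds INSIG proteins, rose with sucrose in control mice (0.52 ± 0.12, adjusted p = 0.0284) and with fructose in both genotypes (0.54 ± 0.12 in control, adjusted p = 0.0336, and 0.66 ± 0.12 in MED13-LKO mice, adjusted p = 0.0147). *Syvn1*, another ligase of the endoplasmic reticulum, was lower in sucrose-fed MED13-LKO libraries (1255 and 854) than in control libraries (4505 and 3525), by -1.94 ± 0.36 (adjusted p = 0.0122). In each of these 4 comparisons the other 7 partners were not called, and over the diets *Rnf145* was higher (0.28 ± 0.07, adjusted p = 0.0149) and *Syvn1* lower (-0.91 ± 0.21, adjusted p = 0.00968).

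Among 5 genes that feed acetyl-CoA and ketone units into the pathway, *Aacs*, which activates acetoacetate for sterol and fatty acid synthesis, rose with both sugars in both genotypes. It went from 583 and 376 to 7512 and 5182 with sucrose (3.73 ± 0.39, adjusted p = 0.000566) and to 6260 and 2307 with fructose in control mice (3.02 ± 0.39, adjusted p = 0.00344). In MED13-LKO mice it went from 608 and 470 to 2890 and 2960 with sucrose (2.45 ± 0.39, adjusted p = 0.00713) and to 1766 and 1967 with fructose (1.80 ± 0.39, adjusted p = 0.0258). *Acss2*, the cytosolic acetyl-CoA synthetase, was lower in sucrose-fed MED13-LKO libraries (1707 and 2558 against 5756 and 3682, -1.14 ± 0.24, adjusted p = 0.0244). The other 3 genes of that list were not called in any comparison. Exons of *Syvn1* and *Acss2* overlap genes on the opposite strand, and the sources used here do not state whether counting used the strand.

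Of 9 tested genes of the isoprenoid branch, *Dhdds*, which builds dolichol precursors, rose with sucrose in control mice (0.52 ± 0.13, adjusted p = 0.0413). *Rabggtb*, a subunit of the Rab prenyltransferase, fell in all 4 feeding comparisons, with log2 fold changes from -0.83 to -0.61, and its exons overlap small nucleolar RNAs on the same strand. It was also lower in sucrose-fed MED13-LKO than in control libraries (-0.42, adjusted p = 0.0383). Of 7 genes of sterol esterification and transfer, *Osbp*, an oxysterol-binding protein, rose with sucrose in control mice (0.60 ± 0.13, adjusted p = 0.0204) and was lower in sucrose-fed MED13-LKO than in control libraries (-0.60 ± 0.13, adjusted p = 0.0251). *Npc2* fell with sucrose in MED13-LKO mice (-0.31 ± 0.08, adjusted p = 0.0474) and *Stard5* fell with fructose in control mice (-0.37 ± 0.09, adjusted p = 0.0392), a gene that shares 23.0% of its 31-base subsequences with others. In the fasted and in the fructose-fed state none of the 29 tested genes of the 4 lists was called between the genotypes by limma, against 8.98% and 7.69% of all genes.

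Some of the 29 pathway genes share sequence with other genes of the annotation, and the division of their reads is uncertain. The share of 31-base subsequences found in other genes was 43.8% for *Acat2* (with *Acat3*), 31.9% for *Fdft1* (with the overlapping *Ctsb*) and 31.3% for *Mbtps2* (with *Yy2*). For *Fdps* it was 27.9%, mostly with *Gm43738*, whose exons overlap those of *Fdps* on the same strand. For *Idi1* it was 27.1%, mostly with *Gm13502*, and for *Tmem97* 25.6%. It was between 11.3% and 14.9% for *Ggps1*, *Tm7sf2*, *Hmgcs1* and *Scap*, and under 10% for the other 19. *Ctsb* was higher in fasted MED13-LKO libraries (0.31, adjusted p = 0.0239) and in sucrose-fed ones (0.30, adjusted p = 0.0345), opposite in sign to *Fdft1*. The summed counts of *Fdft1* and *Ctsb*, of which *Ctsb* makes up most, differed by 0.10 in fasted and 0.05 in sucrose-fed mice, the opposite sign to *Fdft1* alone. *Acat3* was lower when fasted (-0.46, adjusted p = 0.0303), and the summed counts of *Acat2* and *Acat3* differed by -0.43 in fasted and -0.28 in sucrose-fed mice. Among the 19 genes with little sharing, 3 were called lower between fasted mice, 8 between sucrose-fed mice and 0 between fructose-fed mice, against 4.86%, 3.33% and 3.95% of all genes.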

How the data were processed

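The data are RNA-seq of mouse liver, 12 libraries from 6 groups of 2 mice, with genotype, diet and replicate number taken from the sample titles and characteristics. The deposited values are signal values: normalized counts for 16346 genes. The submitters' processing notes name Trim Galore 0.6.5, kallisto 0.46.0, DESeq2 1.24.0 and the mouse build mm10. Each value thus carries a factor for the library and may carry a further one for transcript length. The sum per library was 21060000 to 24150000 in control and 17310000 to 18740000 in MED13-LKO libraries. Whole reads could not be recovered for all genes (53.8% to 59.0% of values under 20 were whole multiples of a library step, within 0.05 of a step), so no count test was run. Among genes with a single annotated transcript, on which the step was fitted, that share was 87.5% to 99.0%. Intervals cover the spread between the samples of a group, estimated from all 6 groups.

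The log2(normalized count + 1) of each library was fitted for 12366 genes (mean at least 10) in limma 3.58.1 (R 4.3.3) as 6 group means, with a trended empirical Bayes prior, 2-sided tests and Benjamini-Hochberg adjustment over all genes tested. The fit was tested on simulated data with independent noise for each gene, which does not cover genes that move together from mouse to mouse. The members and lists were chosen with earlier results of these data known. Every member is named. Genes of the related lists are named where called, and marker lists are given as sums. Promoters came from RefSeq (GRCm38.p6), gene positions and shared 31-base subsequences from GENCODE M21 (GRCm38). Python 3.11.15 with NumPy 2.4.6 and matplotlib 3.10.9 was used for annotation and figures. Some pathway genes are not reported here, and the other experiments of the study were not analysed here.

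For the 29 genes, the counts of called genes, the enzyme medians and each log2 fold change with an unadjusted p under 0.05 were recomputed. The settings were a pseudocount of 0.1 or 10, no filter and rescaling (equal 75th percentiles or median of ratios). Further ones were a replicate block (by title and by column number), the compared groups alone, and each mouse left out. The average over the diets uses all 6 groups, so it was not fitted on compared groups alone. Calls of genes in the related lists were not recomputed.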

Additional observations from a re-analysis of the deposited data

How the results depend on the processing

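No called value of the 29 genes changed its sign under any alternative. Fitting only the groups compared moved the genes called with sucrose in control mice from 5 to 10 and with fructose in control mice from 3 to 0. With no filter on low values the contrast of the genotype difference between the sugars, chosen after the values were seen, went from 0 to 1. Pseudocounts of 0.1 and 10 and both rescalings kept each count of called genes within 1.5 times its main value. Leaving out each mouse in turn gave 1 to 7 called genes for sucrose in control mice, 0 to 4 for fructose in control mice, 0 to 4 for sucrose and 1 to 8 for fructose in MED13-LKO mice. Between the genotypes it gave 1 to 11 in the fasted state, 2 to 13 with sucrose, 0 to 1 with fructose and 13 to 21 over the diets, and 0 to 1 for the genotype difference between the sugars. An arm that then held 1 mouse was assumed to vary like the other groups. No label says that a replicate number marks a shared animal, litter or day. The deviations of mice with the same number in the titles correlated between -0.142 and 0.0782 over 15 pairs of groups, with 0 above 0.1. With the replicate block, 8 instead of 12 genes were called between the genotypes with sucrose, 5 instead of 6 when fasted and 5 instead of 6 with fructose in MED13-LKO mice, and the other counts were unchanged. The column names number the fasted mice 1 and 2 but the refed mice 2 and 3. By those numbers the correlations between a fasted and a refed group lay between -0.0782 and 0.0764. A replicate block on them, added after the values were seen, gave 1 instead of 3 called genes for fructose in control mice, 1 instead of 3 for sucrose and 3 instead of 6 for fructose in MED13-LKO mice, and 6 instead of 12 between the genotypes with sucrose. That block also lost the calls of *Insig1* with sucrose in control mice, *Hmgcs1* between the genotypes when fasted and *Hsd17b7* over the diets. Rescaling to equal 75th percentiles moved the share of higher among all calls from 39.1% to 50.7% for sucrose in MED13-LKO mice, without moving the median of all genes by more than 0.05. Depth sets no floor for the 29 genes, whose lowest value in any library was 122 normalized counts, and the number of mice limits the precision. The cause of each change was not tested.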
